A study of Homo sapiens with 12 samples.

Results

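The integrin and laminin chains were taken as every gene symbol named ITGA, ITGB or LAMA, LAMB and LAMC with its chain number or letter, which matched 38 of the 39368 symbols in the count tables. The 37 described here comprised 18 integrin alpha chains, 8 integrin beta chains and 11 laminin chains. ITGA6 and ITGB4 of the hemidesmosome integrin and LAMA3 and LAMB3 of laminin-332 (4 chains) were described apart from the other 33. RNA-seq was performed on CAL27 and HSC3 cells, established HPV-negative lines of head and neck squamous cell carcinoma (HNSCC). All cells carried a doxycycline-inducible MUC1 shRNA (tet-MUC1shRNA) in a vector with puromycin selection, and were treated for 7 days with 0.1% DMSO (vehicle) or 500 ng/mL doxycycline (DOX), with 3 libraries in each of the 4 groups. CAL27 cells were grown in DMEM and HSC3 cells in MEM, both with 10% fetal bovine serum. Whether the transduced cells were a pool or a clone is not given in the sources used here. No DOX-treated library with the control shRNA was analysed here, so DOX itself, the shRNA and loss of MUC1 cannot be told apart as the source of a difference.

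Integrins are receptors made of 1 alpha and 1 beta chain, which bind matrix proteins outside the cell and link them to the cytoskeleton inside it. Laminins are matrix proteins of the basement membrane built from 1 alpha, 1 beta and 1 gamma chain. Laminin-332 contains the α3 and β3 chains encoded by LAMA3 and LAMB3. It anchors basal cells of squamous epithelia by binding integrin α6β4 in hemidesmosomes, where the cytoplasmic tail of β4 is joined through plectin and BP230 to keratin filaments. Integrin α3β1 binds the same laminin outside hemidesmosomes.

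The bases upstream of a start site are shown for LAMA3 and LAMB3, because these windows of laminin-332 chains held AP-1 matches, and for ITGB6, because it was lower with DOX in both lines and held none. They are from RefSeq (GRCh38.p14), 5′ to 3′ on the strand of the gene, and run from base -250 to base -51 before the start. Capitals mark matches to the AP-1 motif TGANTCA, searched on both strands. LAMA3 lay at chr18:23872770-23872969 (plus strand), LAMB3 at chr1:209651425-209651624 (minus strand) and ITGB6 at chr2:160200323-160200522 (minus strand).
LAMA3: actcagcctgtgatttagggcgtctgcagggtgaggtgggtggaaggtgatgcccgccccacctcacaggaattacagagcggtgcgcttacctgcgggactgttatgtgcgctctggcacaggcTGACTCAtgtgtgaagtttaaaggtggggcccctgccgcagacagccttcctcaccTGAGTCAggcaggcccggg
LAMB3: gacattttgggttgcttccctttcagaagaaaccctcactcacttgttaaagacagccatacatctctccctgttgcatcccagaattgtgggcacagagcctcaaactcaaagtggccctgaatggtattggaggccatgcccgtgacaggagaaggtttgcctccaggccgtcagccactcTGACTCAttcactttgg
ITGB6: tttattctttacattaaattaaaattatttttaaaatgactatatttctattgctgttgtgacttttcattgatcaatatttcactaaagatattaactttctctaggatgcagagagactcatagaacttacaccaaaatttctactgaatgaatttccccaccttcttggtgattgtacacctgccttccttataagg
The LAMA3 and LAMB3 windows lay inside the annotated genes, ahead of internal starts, so they belong to some and not all of the transcripts that were counted under these symbols. A window was given for 26 of the 37 chains, and ITGB4 was not among them. LAMA3 had AP-1 matches at -125 and -69 and LAMB3 had 1 at -67, while the other 2 LAMB3 windows had none. Among chains, ITGA5 was the other with a match, and 7.71% of all 35116 windows (300 bases each) had one. The letters TTCNNNGAA, a STAT motif, were in 7.66% of windows and in those of ITGAE and LAMB2. ITGB6 had no match to either motif. Nor had the windows of ITGB5, higher with DOX in both lines, or of ITGA6 and ITGB8, lower in both. The STAT motif and the ITGB6 window were chosen after the expression values were seen. A match is a description of the letters and was not tested as a site.

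MUC1 was measured first as the target of the shRNA. It was at 63.9, 58.9 and 59.9 CPM (counts scaled to the size of the library, with TMM normalization within a line) in CAL27 vehicle and at 3.19, 3.06 and 3.58 CPM in CAL27 DOX libraries. In HSC3 cells MUC1 was at 1.51, 1.78 and 1.499 CPM with vehicle and at 0.279, 0.244 and 0.120 CPM with DOX. The DOX libraries were below the vehicle libraries in both lines, with log2 fold changes of -4.21 (SE 0.07, edgeR adjusted p = 1.6e-19) and -2.88 (SE 0.38, adjusted p = 2.0e-04), from a lower level in HSC3 cells. Totals per library ran from 92866845 to 126328662 counts in CAL27 cells, from 89730914 to 130393198 in HSC3 vehicle and from 134231542 to 169065103 in HSC3 DOX cells. A molecule was estimated to have given 2.45 to 3.33 counts in CAL27, 4.18 to 7.43 in HSC3 vehicle and 8.93 to 17.2 in HSC3 DOX libraries, so genes with few counts are less certain in HSC3 DOX than their counts alone would show. The highest estimate was that of HSC3 DOX replicate 1, which also stood apart from the other DOX libraries in ITGB4, LAMB3 and ITGA3 below. Levels compared between genes are CPM per kb of the MANE Select transcript, which corrects for length. They are on the scale of each line, and folds between the lines are from the fit of all libraries.

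Without DOX, CAL27 and HSC3 cells both expressed the chains of α6β4 and α3β1 among the highest of the set, with LAMB3 of laminin-332 close behind. In CAL27 vehicle cells the highest levels per length were those of ITGA3 (134 CPM per kb), ITGB4 (127) and ITGA6 (120.3), followed by ITGB1 (77.5), LAMB3 (77.2) and ITGB8 (51.1). In HSC3 vehicle cells ITGA3 (432 CPM per kb), ITGB1 (423) and ITGB4 (360.4) were highest, and LAMB3 (187), ITGA6 (171) and LAMA3 (101) lay below them. The order depended on the length used, chosen after the values were seen. With all annotated exons in place of 1 transcript ITGB4 came first in both lines, and ITGB1 moved from rank 4 to 9 in CAL27 and from rank 2 to 5 in HSC3 cells. ITGB1 was at 77.5 and LAMB3 at 77.2 CPM per kb in CAL27 cells, a difference smaller than that made by the choice of length.

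**Figure D1:**
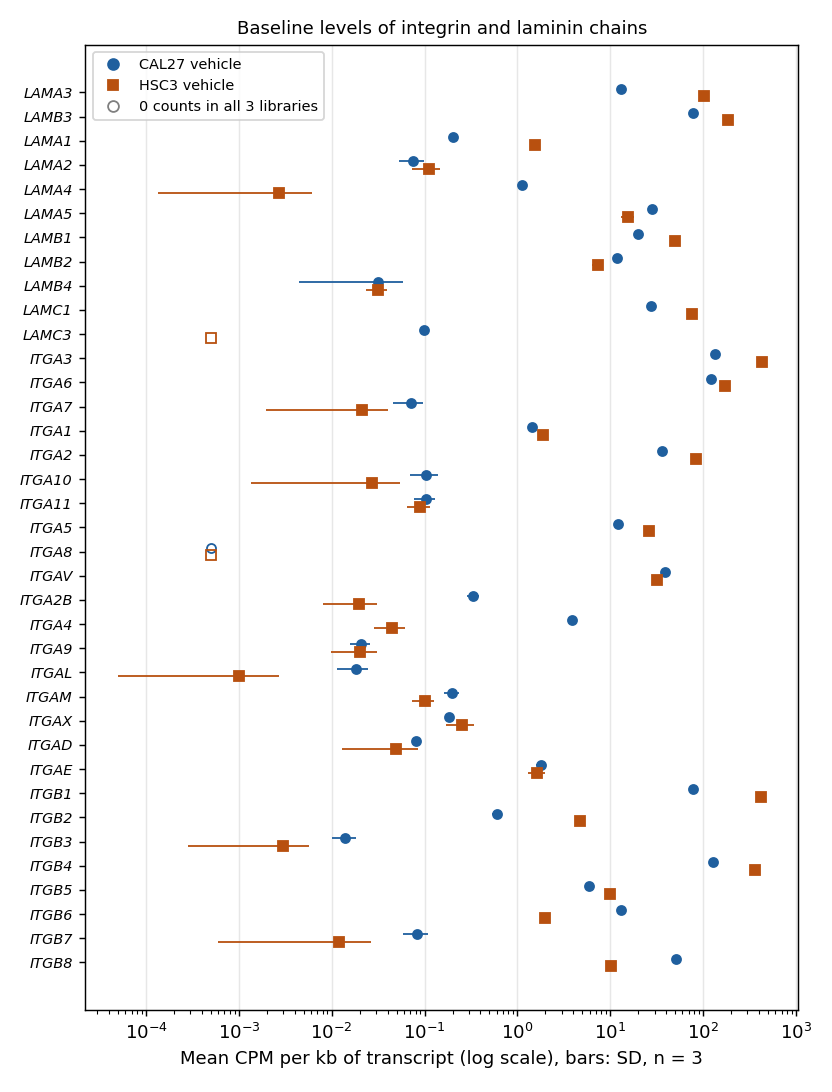
Mean CPM per kb (scale of each line) of each chain in vehicle-treated CAL27 (blue circles) and HSC3 (orange squares) cells, on a log axis. The lines are normalized apart, so distances between circles and squares are not the fold differences of the fit. Horizontal bars are the SD of 3 libraries, cut short at the left where they would reach 0, and open symbols mark 0 counts in all 3. ITGA3, with 134 in CAL27 and 432 CPM per kb in HSC3 cells, lies farthest to the right, and ITGA8 has no count in either line.

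ITGA6, ITGB4, LAMA3 and LAMB3 were all at a higher level in HSC3 than in CAL27 vehicle cells. In a fit of all libraries with edgeR, 12 chains were higher and 7 lower in HSC3 vehicle than in CAL27 vehicle cells at an adjusted p under 0.05 and a fold above 2, of 36 tested. Over all genes tested, 13.2% were called higher and 18.7% lower. With no fold threshold 14 chains were higher and 9 lower, against 30.6% and 32.3% of all genes. The median log2 difference was 0.19 over the chains and -0.12 over all genes. Scaling by library totals in place of TMM moved the median of all genes by -0.27. The line, its medium and its count table differ together, and their parts cannot be told apart.

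On a scale common to both lines, LAMA3 was at 126 ± 4.42 CPM (SD, n = 3) in CAL27 and at 1185 ± 16.5 CPM in HSC3 vehicle cells, a 9.41-fold difference (edgeR adjusted p = 6.9e-16). LAMB3 differed less, with 281 ± 3.07 CPM against 826 ± 64.5 CPM and a 2.94-fold difference. Per length, on the scale of each line, LAMB3 and LAMA3 were at less unequal levels in HSC3 than in CAL27 cells. They were at 187 and 101 CPM per kb in HSC3 and at 77.2 and 13.03 CPM per kb in CAL27 cells. Counts were by gene symbol, so the short and the long transcript of LAMA3 were not separated, and the length used is that of the long one. On the common scale ITGB4 was 3.45-fold higher in HSC3 cells (2335 ± 171 against 677 ± 32.2 CPM). ITGA6 was 1.72-fold higher (1095 ± 40.3 against 635 ± 19.5 CPM), below the fold threshold though past the adjusted p (edgeR, 3.6e-09).

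The β1 chain, the partner of most alpha chains, was also higher in HSC3 cells, as were the α3, α2 and α5 chains that pair with it. Among its other alpha partners ITGA1 was 1.57-fold higher (edgeR adjusted p = 2.5e-04), below the fold threshold, and ITGA4 was lower. ITGA7, ITGA9, ITGA10 and ITGA11 did not pass the test (edgeR adjusted p of 0.26, 0.76, 0.11 and 0.86). ITGA10 was called lower by counts per molecule (0.0096) and without HSC3 vehicle replicate 1 (0.035). ITGB1 was 6.60-fold higher (1736 ± 38.9 against 263 ± 2.08 CPM), and ITGA3, the laminin-binding α3 chain, was 3.90-fold higher. ITGA2, which binds collagen, was 2.84-fold higher, and ITGA5, which binds fibronectin, was 2.58-fold higher. LAMC1 and LAMB1, chains of many laminins other than laminin-332, were 3.32-fold and 3.05-fold higher. LAMA1 was 9.22-fold higher from a low level (16.5 ± 1.06 against 1.79 ± 0.0482 CPM). ITGB2, the β chain of leukocyte integrins, was 9.66-fold higher, at 14.6 ± 0.868 against 1.52 ± 0.154 CPM, and ITGB5 was 2.07-fold higher. The ITGB5 call was lost by library totals (log2 difference 0.78) and without HSC3 vehicle replicate 2 (0.98), where the fold was below 2. The alpha chains that pair with β2 (ITGAL, ITGAM, ITGAX and ITGAD) had at most 204 counts in any library.

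The beta chains that pair with αv were split between the lines, while αv itself did not pass the test. ITGAV was at 252 ± 10.8 CPM in CAL27 and 247 ± 4.70 CPM in HSC3 cells (log2 difference -0.02, SE 0.08, edgeR adjusted p = 0.80). Scaled by library totals in place of TMM, ITGAV was lower in HSC3 cells (log2 difference -0.30, adjusted p = 0.0014). ITGB8 was 4.14-fold lower in HSC3 cells, at 101 ± 3.61 against 416 ± 13.8 CPM. ITGB6, the epithelial αv partner, was 5.47-fold lower (10.1 ± 0.738 against 55.1 ± 2.78 CPM). ITGB5 had the opposite direction, as given above. ITGA4, the α4 chain of fibronectin and VCAM-1 receptors, was at 23.6 ± 0.561 CPM in CAL27 and 0.335 ± 0.125 CPM in HSC3 cells, a 71.3-fold difference. LAMA4, a chain of endothelial and muscle laminins, had 762 to 987 counts in CAL27 vehicle libraries and 6, 1 and 0 in HSC3 vehicle libraries. LAMC3 had 95, 71 and 80 counts in CAL27 vehicle libraries and 0 in each HSC3 library. The other chains called lower in HSC3 cells were ITGA2B, with 152, 96 and 144 counts against 8, 10 and 4, and ITGAL, with 7, 12 and 11 counts against 0, 0 and 2. The ITGAL call was lost with no filter on low counts (edgeR adjusted p = 0.078) and when any CAL27 library or HSC3 vehicle replicate 1 or 2 was left out (0.061 to 0.12).

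With DOX, no chain passed the test with a rise of more than 2-fold in either line, and few passed it with a fall of that size. In CAL27 cells 0 chains were called higher and 2 lower (ITGAX and LAMC3) of 35 tested, where 1.31% and 5.11% of all genes were. In HSC3 cells 0 were called higher and 3 lower (ITGB8, ITGA4 and ITGAM) of 31 tested, where 1.58% and 4.4% of all genes were. At an adjusted p under 0.05 with no fold threshold, 9 chains were higher and 14 lower in CAL27 cells (22.6% and 21.8% of all genes), and 4 were higher and 9 lower in HSC3 cells (13.0% and 15.4%). At a fold above 1.5, 1 chain was higher and 5 lower in CAL27 cells (3.71% and 9.61% of all genes), and 0 were higher and 5 lower in HSC3 cells (4.43% and 8.4%). The median log2 fold change of the chains was -0.23 in CAL27 and -0.19 in HSC3 cells, and that of all genes was -0.0052 and -0.0097. The changes described next are therefore mostly below 2-fold, and they are given with the values of each library. Libraries were made from cells cultured in triplicate, and p-values measure the spread between those cultures.

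In both lines 31 of the chains were tested. ITGA4, ITGA6, ITGAM, ITGAV, ITGB6 and ITGB8 were lower with DOX in both lines at an adjusted p under 0.05, and ITGB2 and ITGB5 were higher in both. Of the 17164 genes tested in both lines, 8.62% were lower in both and 7.82% higher in both. ITGA3 and LAMA3 were higher in CAL27 and lower in HSC3 cells, and ITGA2 was lower in CAL27 and higher in HSC3 cells, against 2.37% and 1.19% of those genes. The difference between the lines, taken as the HSC3 effect minus the CAL27 effect in 1 fit, passed that threshold for 12 of 36 chains, of which 2 were positive and 10 negative. Over all genes 8.25% were positive and 12.3% negative. The median difference was -0.18 over the chains and -0.022 over all genes. With a fold above 2, ITGA4 alone was called in the difference (negative), against 2.19% of all genes called positive and 3.02% negative, and at a fold above 1.5 2 chains were positive and 4 negative (4.54% and 6.25%).

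**Figure D2:**
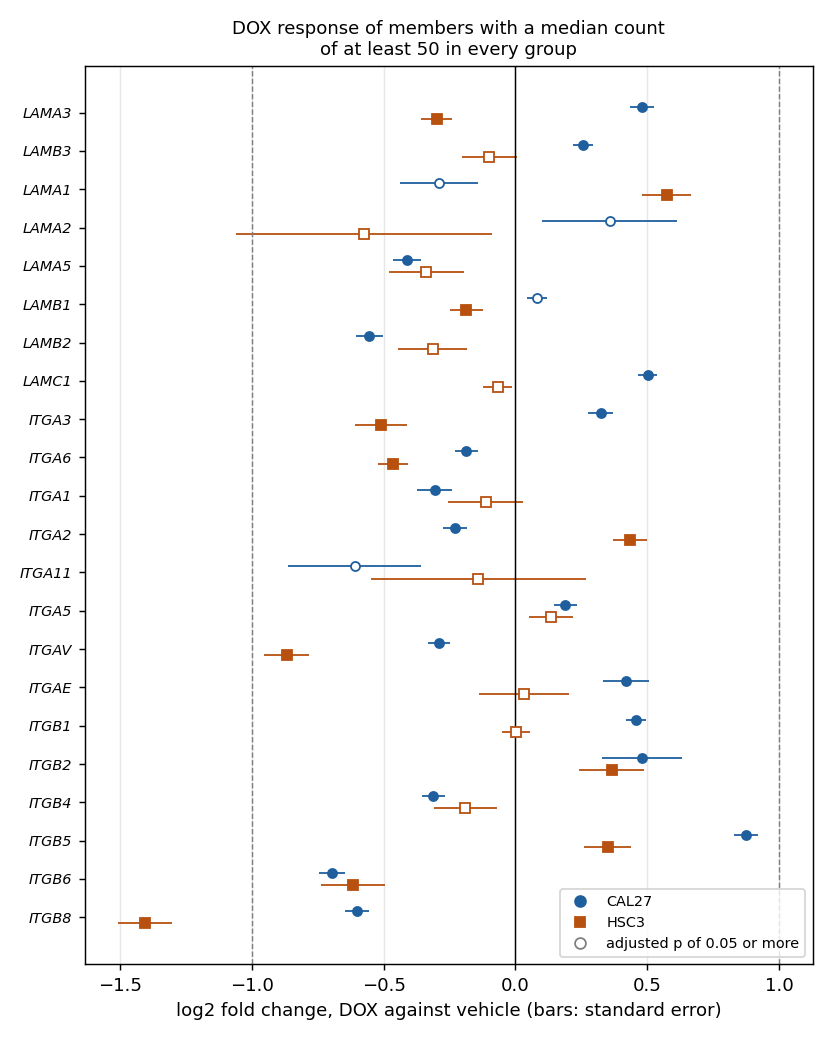
Log2 fold change with DOX against vehicle (horizontal axis) of the 22 chains with a median count of at least 50 in every group, 1 chain per row, for CAL27 (blue circles) and HSC3 (orange squares) cells. Bars are the SE, open symbols mark an adjusted p of 0.05 or more and dashed lines a 2-fold change. LAMA3 and ITGA3 lie on opposite sides of 0 in the lines, and ITGB8 at -1.40 in HSC3 cells lies farthest to the left.

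LAMA3 and LAMB3 rose in CAL27 cells, and in HSC3 cells LAMA3 fell. Over the 4 chains ITGA6, ITGB4, LAMA3 and LAMB3, 2 rose and 2 fell in CAL27 cells (median log2 fold change 0.034), and 0 rose and 2 fell in HSC3 cells (median -0.24). LAMA3 (gene at chr18:23689453-23956222, plus strand) was at 140.0, 143 and 133 CPM in CAL27 vehicle and at 181, 194 and 206 CPM in CAL27 DOX libraries. In HSC3 cells LAMA3 went the other way, from 1092, 1056 and 1089 CPM with vehicle to 831, 899 and 899.8 CPM with DOX. The DOX and vehicle libraries did not overlap in either line. The log2 fold change was 0.48 (SE 0.05, edgeR adjusted p = 3.7e-08) in CAL27 and -0.30 (SE 0.06, adjusted p = 0.0026) in HSC3 cells, and the difference between the lines was -0.78 (SE 0.07, adjusted p = 3.2e-06).

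LAMB3 (chr1:209614870-209652425, minus strand), the β3 chain of laminin-332, rose in CAL27 cells, from 310.3, 313 and 307 CPM to 381, 371 and 356 CPM (log2 fold change 0.25, SE 0.04, edgeR adjusted p = 1.3e-05). In HSC3 cells LAMB3 was at 805, 761 and 690.1 CPM with vehicle and at 578, 783 and 745 CPM with DOX. HSC3 DOX replicate 1 was below the others and the remaining DOX libraries lay within the vehicle range. The log2 fold change in HSC3 cells was -0.10 (SE 0.10, adjusted p = 0.56), and without that library it was 0.022. The difference between the lines was -0.35 (SE 0.12, edgeR adjusted p = 0.052) and, without that library, -0.21 (adjusted p = 0.030). It was also past the threshold with DESeq2 (adjusted p = 0.032). By edgeR it was so by counts per molecule (0.025), with a stricter filter (0.04999) and without HSC3 DOX replicate 2 (0.014) or vehicle replicate 3 (0.039). In 12 of 18 alternatives it was not past the threshold.

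The chains of α6β4 fell in CAL27 cells, where LAMA3 and LAMB3 of its ligand rose. ITGA6 (chr2:172427354-172506459, plus strand) was at 695, 682 and 721 CPM in CAL27 vehicle and at 628, 642 and 575 CPM in CAL27 DOX libraries. Its HSC3 levels were 971, 977 and 1041 CPM with vehicle and 746, 696 and 724 CPM with DOX. All DOX libraries were below all vehicle libraries in both lines. The log2 fold changes were -0.19 (SE 0.04, edgeR adjusted p = 0.0015) and -0.46 (SE 0.06, adjusted p = 1.6e-04). Their difference of -0.28 (SE 0.08, edgeR adjusted p = 0.017) was not past the threshold when any one of CAL27 DOX a or b, CAL27 vehicle 1 or 2 or HSC3 vehicle 3 was left out (adjusted p 0.053 to 0.075). ITGB4 (chr17:75721328-75757818, plus strand) fell in CAL27 cells from 773, 755 and 709.9 CPM to 579, 598 and 628 CPM (log2 fold change -0.31, SE 0.04, adjusted p = 5.2e-06). In HSC3 cells ITGB4 was at 2239, 2182 and 1952 CPM with vehicle and at 1457, 2084 and 2046 CPM with DOX (log2 fold change -0.19, SE 0.12, edgeR adjusted p = 0.29). The low value was again HSC3 DOX replicate 1, and the other DOX libraries were inside the vehicle range. The difference between the lines was 0.12 (SE 0.14, adjusted p = 0.63), and without that library it was 0.29 (adjusted p = 0.0072).

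**Figure D3:**
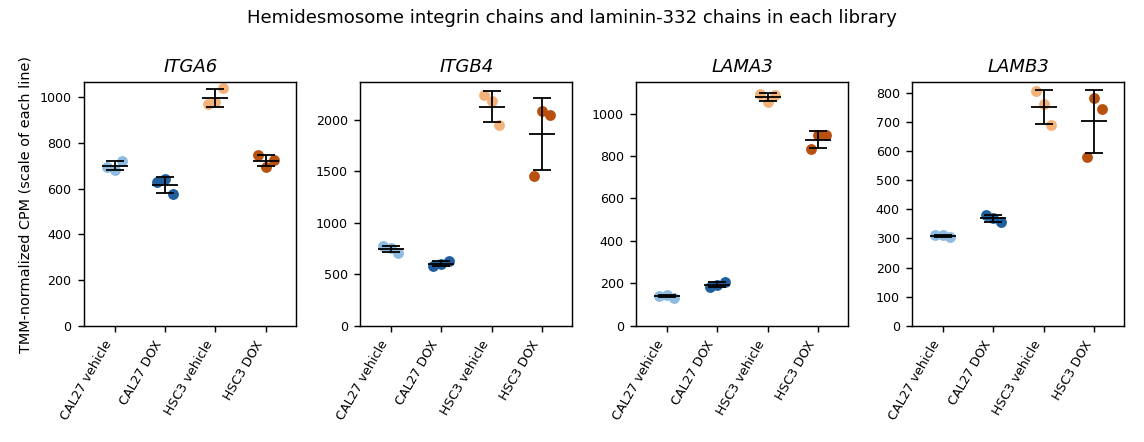
TMM-normalized CPM (scale of each line) of ITGA6, ITGB4, LAMA3 and LAMB3 in each library, with the mean and SD of 3 libraries per group. LAMA3 is above vehicle in the 3 CAL27 DOX libraries and below vehicle in the 3 HSC3 DOX libraries, and HSC3 DOX replicate 1 is the low point for ITGB4 (1457) and LAMB3 (578).

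The α3 chain of the other laminin-332 receptor changed in the same directions as LAMA3. ITGA3 was at 691, 666 and 612 CPM in CAL27 vehicle and at 796, 801 and 864 CPM in CAL27 DOX libraries. The HSC3 vehicle libraries were at 2294, 2127 and 1915 CPM and the HSC3 DOX libraries at 1255, 1602 and 1595 CPM, with no overlap in either line. The log2 fold changes were 0.32 (SE 0.05, edgeR adjusted p = 1.2e-05) and -0.51 (SE 0.10, adjusted p = 0.0028), with a difference of -0.83 (SE 0.12, adjusted p = 1.8e-04). Without HSC3 DOX replicate 1 the difference was -0.71. ITGB1 rose in CAL27 cells from 287, 294 and 288 CPM to 406, 401 and 386 CPM (log2 fold change 0.46, SE 0.04, edgeR adjusted p = 4.2e-09). In HSC3 cells it was at 1559, 1555 and 1625 CPM with vehicle and at 1604, 1576 and 1568 CPM with DOX, which overlapped (log2 fold change 0.00, SE 0.05, adjusted p = 0.98). The difference of ITGB1 between the lines was -0.45 (SE 0.06, edgeR adjusted p = 7.6e-05).

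Among the other alpha chains that pair with β1, ITGA2 had the pattern opposite to that of ITGA3. It was at 273, 269 and 302 CPM in CAL27 vehicle and at 249.7, 239.8 and 231 CPM in CAL27 DOX libraries. In HSC3 cells ITGA2 rose from 643, 658 and 684 CPM to 964, 851 and 864 CPM. The log2 fold changes were -0.23 (SE 0.05, edgeR adjusted p = 3.8e-04) and 0.43 (SE 0.06, adjusted p = 5.1e-04), and the difference was 0.66 (SE 0.09, adjusted p = 7.4e-05). ITGA1, the neighbour of ITGA2 on chromosome 5 and also a collagen-binding chain, was lower with DOX in CAL27 cells (log2 fold change -0.31, SE 0.07, edgeR adjusted p = 6.7e-04). In HSC3 cells it was at 20.8, 19.7 and 19.9 CPM with vehicle and at 23.5, 15.9 and 16.3 CPM with DOX (log2 fold change -0.11, adjusted p = 0.63), and without HSC3 DOX replicate 1 it was lower (-0.32, edgeR adjusted p = 0.0073). The CAL27 change of ITGA1 was not past the threshold in the fit of all 12 libraries (adjusted p = 0.094). ITGA5 rose slightly in CAL27 cells (log2 fold change 0.19, SE 0.04, edgeR adjusted p = 0.0015) and was 0.13 (SE 0.08, adjusted p = 0.29) in HSC3 cells. Without HSC3 DOX replicate 1 the HSC3 value of ITGA5 was 0.22 (edgeR adjusted p = 0.0038), and the CAL27 value missed the threshold in the fit of all 12 libraries (0.061). The collagen-binding ITGA10 and ITGA11 and the laminin-binding ITGA7 did not pass the test in either line, at no more than 200 counts in any library. ITGA11 was past the threshold in CAL27 cells (lower) with no filter on low counts (edgeR adjusted p = 0.034). It was so too without DOX c (0.0043) or vehicle replicate 2 (0.025).

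The αv chain and its β6 and β8 partners were lower with DOX in both lines, while β5 was higher. Integrins αvβ6 and αvβ8 are known for releasing active TGF-β from its latent form, and αvβ5 is a vitronectin receptor. ITGAV was at 279, 265 and 286 CPM in CAL27 vehicle and at 240.1, 221 and 219 CPM in CAL27 DOX libraries. In HSC3 cells ITGAV was at 230.0, 219.7 and 226 CPM with vehicle and at 142, 115 and 114 CPM with DOX. The fall was larger in HSC3 cells, with log2 fold changes of -0.29 (SE 0.04, edgeR adjusted p = 1.3e-05) and -0.87 (SE 0.09, adjusted p = 2.7e-05) and a difference of -0.57 (SE 0.11, adjusted p = 0.0014). ITGB8 fell from 456, 446 and 473 CPM to 285, 298 and 324 CPM in CAL27 cells. The HSC3 libraries went from 88.2, 91.6 and 94.8 CPM to 40.7, 30.5 and 32.6 CPM. Here the log2 fold changes were -0.60 (SE 0.04, edgeR adjusted p = 1.3e-09) and -1.40 (SE 0.10, adjusted p = 3.3e-06), with a difference of -0.80 (SE 0.12, adjusted p = 2.5e-04). The HSC3 call for ITGB8 held under all 14 alternatives run, where the log2 fold change was -1.54 to -1.32.

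ITGB6 also fell in both lines. It was at 62.2, 57.6 and 62.3 CPM in CAL27 vehicle and at 37.7, 39.1 and 35.7 CPM in CAL27 DOX libraries, and at 9.74, 9.32 and 8.45 CPM against 5.80, 6.23 and 5.93 CPM in HSC3 cells. The groups did not overlap in either line. The log2 fold changes were -0.70 (SE 0.05, edgeR adjusted p = 4.5e-10) and -0.62 (SE 0.12, adjusted p = 0.0028), and the difference was 0.08 (SE 0.10, adjusted p = 0.67). Of the annotated exon bases of ITGB6, 16.7% lie under another gene on the same strand, so its counts could be shared with that gene. ITGB5 rose from 26.3, 26.2 and 25.3 CPM to 47.5, 47.2 and 47.8 CPM in CAL27 cells, the largest increase among the chains called at an adjusted p under 0.05 (log2 fold change 0.87, SE 0.05, edgeR adjusted p = 6.0e-12). In HSC3 cells ITGB5 was at 43.0, 48.3 and 42.0 CPM with vehicle and at 51.8, 62.3 and 55.6 CPM with DOX (log2 fold change 0.35, SE 0.09, adjusted p = 0.014). The HSC3 adjusted p of ITGB5 was 0.051 without DOX replicate 2, and 0.071 and 0.073 without vehicle replicate 1 or 3. The difference between the lines was -0.52 (SE 0.10, edgeR adjusted p = 0.0017). ITGB3, the remaining αv partner of platelets and endothelium, had at most 14 counts in any library and was not tested within a line.

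**Figure D4:**
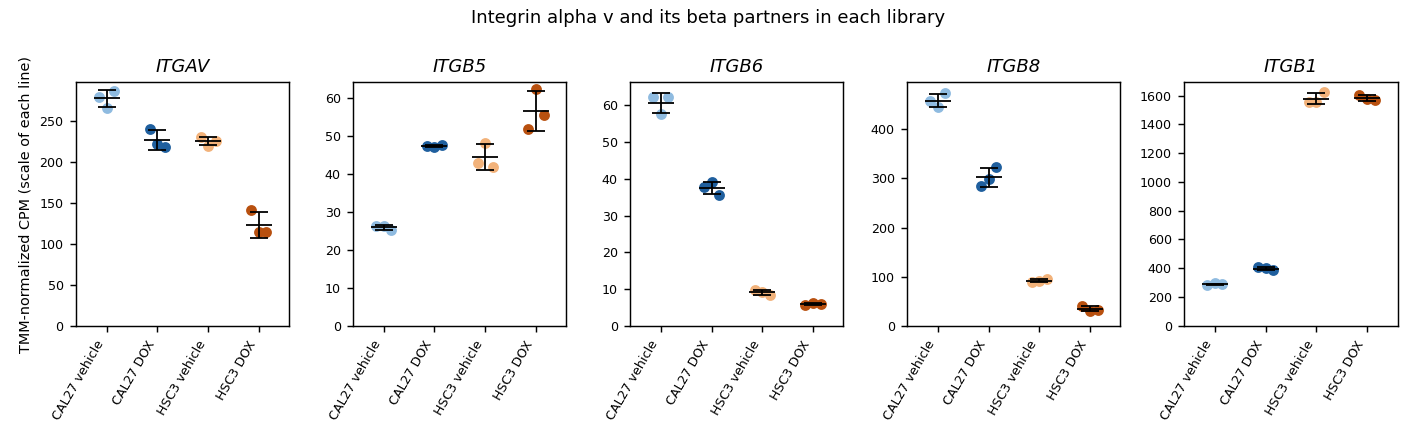
TMM-normalized CPM (scale of each line) of ITGAV and its beta partners ITGB5, ITGB6, ITGB8 and ITGB1 in each library, with the mean and SD of 3 libraries per group. ITGAV, ITGB6 and ITGB8 are below vehicle in all DOX libraries of both lines, and ITGB5 is above vehicle in them.

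Of the 9 laminin chains outside laminin-332, 1 rose and 3 fell in CAL27 cells (median log2 fold change -0.14), and of 7 tested in HSC3 cells 1 rose and 1 fell (median -0.31). LAMC1, the gamma chain of most laminins, rose in CAL27 cells from 218, 215 and 217 CPM to 299, 308 and 313 CPM (log2 fold change 0.50, SE 0.04, edgeR adjusted p = 9.3e-10). In HSC3 cells it was at 596, 577 and 613 CPM with vehicle and at 557, 560.4 and 587 CPM with DOX (adjusted p = 0.43), and the difference was -0.57 (SE 0.06, adjusted p = 1.0e-05). LAMB1 was at 108, 115 and 112 CPM against 119, 116 and 119.6 CPM in CAL27 cells and at 295, 276 and 273 CPM against 233, 255 and 254 CPM in HSC3 cells. Its difference between the lines was -0.27 (SE 0.07, edgeR adjusted p = 0.012), and 0.053 without CAL27 vehicle replicate 1. The HSC3 change of LAMB1 itself (log2 fold change -0.19, adjusted p = 0.045) was not past the threshold when any HSC3 library other than DOX replicate 1 was left out (adjusted p 0.058 to 0.20), with no filter on low counts (0.054) or with another scaling (0.060).

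LAMA5 and LAMB2, chains of the laminins of mature basement membranes, fell in CAL27 cells. LAMA5 was at 321, 332.2 and 310.4 CPM with vehicle and at 221, 239 and 265 CPM with DOX (log2 fold change -0.41, SE 0.05, edgeR adjusted p = 1.5e-05). LAMB2 was at 64.9, 70.9 and 65.9 CPM against 49.1, 44.5 and 43.8 CPM (log2 fold change -0.55, SE 0.05, adjusted p = 2.1e-08). In HSC3 cells these chains overlapped between vehicle and DOX, with log2 fold changes of -0.34 (SE 0.14, edgeR adjusted p = 0.11) for LAMA5 and -0.31 (SE 0.13, adjusted p = 0.10) for LAMB2. The fit of all 12 libraries put both past the threshold in HSC3 cells (adjusted p of 0.048 and 0.037), as DESeq2 did LAMA5 (0.048). Between the lines the difference was 0.07 (SE 0.17, edgeR adjusted p = 0.84) for LAMA5 and 0.24 (adjusted p = 0.32) for LAMB2, the latter 0.37 (0.023) without HSC3 DOX replicate 1. LAMA1 was at 14.3, 16.02 and 14.7 CPM in HSC3 vehicle and at 21.1, 23.0 and 22.8 CPM in HSC3 DOX libraries (log2 fold change 0.57, SE 0.09, edgeR adjusted p = 8.9e-04). In CAL27 cells LAMA1 was near 2 CPM, from 1.91 to 2.02 with vehicle and from 1.53 to 1.73 with DOX (adjusted p = 0.12). It was past the threshold there in the fit of all 12 libraries (edgeR adjusted p = 0.045). The difference of LAMA1 between the lines was 0.87 (SE 0.13, adjusted p = 1.9e-04). LAMC3 had 95, 71 and 80 counts in CAL27 vehicle and 33, 16 and 41 in CAL27 DOX libraries (log2 fold change -1.33, SE 0.30, edgeR adjusted p = 9.0e-04), a call that was lost in the fit of all 12 libraries (adjusted p = 0.13). LAMA2, LAMA4 and LAMB4 did not pass the test in CAL27 cells, and LAMA2 and LAMB4 did not in HSC3 cells, where LAMA4 was not tested.

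Besides ITGB8 and LAMC3, the chains called with a fold above 2 were ITGA4, ITGAX and ITGAM, known mainly from leukocytes, and these folds rest on few counts. ITGA4 fell in CAL27 cells from 25.3, 25.9 and 26.7 CPM to 18.1, 18.5 and 18.5 CPM (log2 fold change -0.50, SE 0.05, edgeR adjusted p = 2.2e-07). HSC3 cells had 22, 34 and 48 counts under vehicle, then 4, 0 and 0 under DOX (log2 fold change -5.01, SE 1.30, adjusted p = 0.014). That call was lost without HSC3 vehicle replicate 2 (adjusted p = 0.087) or 3 (0.084), and 26.4% of the exon bases of ITGA4 are antisense to another gene. With a stricter filter on low counts or by counts per molecule, ITGA4 was not tested in HSC3 cells. The difference between the lines for ITGA4 was -4.42 (SE 0.59, edgeR adjusted p = 7.4e-05), and it stayed called in the runs that left out 1 library. That fit shared its estimate of the spread over all 12 libraries, CAL27 cells included. Its SE was therefore below the 1.30 of the HSC3 effect fitted alone, and the HSC3 DOX counts behind it are the same few. ITGAX had 104, 92 and 88 counts in CAL27 vehicle and 34, 29 and 43 in CAL27 DOX libraries (log2 fold change -1.30, SE 0.25, adjusted p = 2.2e-04), which the fit of all 12 libraries did not call (adjusted p = 0.24). In HSC3 cells ITGAX had 98, 111 and 204 counts in the vehicle and 44, 68 and 0 in the DOX libraries (log2 fold change -2.28, SE 0.87, adjusted p = 0.078). The HSC3 change of ITGAX was called in the fit of all 12 libraries (edgeR adjusted p = 0.024), by counts per molecule (0.0093) and without DOX replicate 2 (0.040) or 3 (0.021). ITGAM had 77, 40 and 48 counts in HSC3 vehicle and 7, 20 and 20 in HSC3 DOX libraries (log2 fold change -2.11, SE 0.69, edgeR adjusted p = 0.041). The HSC3 call of ITGAM was lost without DOX replicate 2 (0.059) or without vehicle replicate 1, 2 or 3 (0.19, 0.11 and 0.079). It was also lost with the replicate block (edgeR adjusted p = 0.093). ITGAM was not tested in HSC3 cells with the stricter filter or by counts per molecule. In CAL27 cells ITGAM had 109, 79 and 126 counts against 34, 57 and 59 (log2 fold change -0.94, SE 0.25, edgeR adjusted p = 0.0048), and the fit of all 12 libraries did not put it past the threshold (0.15).

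ITGB2 was higher with DOX at 2.19, 2.65 and 2.16 CPM against 1.47, 1.79 and 1.76 CPM in CAL27 cells and at 14.4, 19.3 and 17.8 CPM against 13.2, 12.6 and 14.2 CPM in HSC3 cells. Its adjusted p by edgeR was 0.014 in CAL27 cells, with 0.088 without DOX b and 0.090 without vehicle replicate 1. In HSC3 cells it was 0.047, and it was 0.079 to 0.18 without any one library other than DOX replicate 1. ITGAE, the alpha chain of an E-cadherin receptor, rose in CAL27 cells (log2 fold change 0.42, SE 0.09, edgeR adjusted p = 5.1e-04) from 6.79, 6.09 and 7.59 CPM to 9.10, 9.25 and 9.06 CPM. ITGA2B, the platelet α chain, had 152, 96 and 144 counts in CAL27 vehicle and 91, 54 and 95 in CAL27 DOX libraries (adjusted p = 0.037). That change was not past the threshold without DOX b (edgeR adjusted p = 0.18) or vehicle replicate 1 or 3 (0.098 and 0.14), or in the fit of all 12 libraries (0.71). ITGA9, ITGAD, ITGAL and ITGB7 did not pass the test in any line in which they were tested. Without DOX c, ITGB7 was called lower in CAL27 cells (log2 fold change -1.45, edgeR adjusted p = 0.040). ITGA8 had 0 counts in all libraries but HSC3 DOX replicate 2, where it had 4.

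Summed levels of cell type markers were measured beside these chains. In a bulk library fewer cells of a type and less RNA per cell cannot be told apart. The 10 squamous epithelial markers summed to 7875 to 8140 CPM in CAL27 vehicle and 3945 to 4204 CPM in CAL27 DOX libraries. In HSC3 cells they summed to 6271 to 6843 CPM with vehicle and 3280 to 3568 CPM with DOX. Of these markers 8 fell and 1 rose in CAL27 cells, and 7 fell and 1 rose in HSC3 cells, at an adjusted p under 0.05. At that threshold, used for the marker counts here, 21.8% of all genes fell and 22.6% rose in CAL27 cells. In HSC3 cells 15.4% fell and 13.0% rose. The 6 leukocyte markers summed to 14.9 to 17.04 CPM and 19.9 to 23.1 CPM in CAL27 cells and to 6.396 to 7.04 CPM and 13.9 to 15.6 CPM in HSC3 cells, where CD3E had no counts. CAL27 cells had 1 of 5 tested markers rising and 0 falling, and HSC3 cells had 1 of 4 rising and 1 falling. LCP1, an actin-bundling protein, was the marker that rose in both (log2 fold change 0.85, SE 0.08, and 2.40, SE 0.13), and CORO1A fell in HSC3 cells (-1.53, SE 0.21). The 6 platelet and endothelial markers summed to 19.02 to 19.3 CPM and 10.9 to 14.7 CPM in CAL27 cells and to 1.12 to 1.89 CPM and 0.932 to 1.25 CPM in HSC3 cells, with PF4 and PPBP at 0 in every library. The 8 fibroblast and muscle markers summed to no more than 16.5 CPM in any library, with COL3A1 and DES at 0. The part of these shifts in the changes of the chains was not tested.

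The keratins joined to α6β4 fell in both lines. Of 6 hemidesmosome plaque and partner genes, 2 rose and 3 fell in CAL27 cells (median log2 fold change -0.04) and 0 rose and 4 fell in HSC3 cells (median -0.31) at an adjusted p under 0.05. The 2 that rose in CAL27 cells, named after their values were seen, were PLEC, the gene of plectin, and COL17A1. Their log2 fold changes were 0.71 (SE 0.07, edgeR adjusted p = 4.5e-06) and 0.22 (SE 0.04, adjusted p = 4.9e-05). Neither rose at that threshold in HSC3 cells. The difference between the lines was -0.44 (SE 0.18, edgeR adjusted p = 0.11) for PLEC and -0.20 (SE 0.07, adjusted p = 0.048) for COL17A1. At that threshold 22.6% of all genes were higher and 21.8% lower in CAL27, against 13.0% and 15.4% in HSC3 cells, the background for this and the following lists. KRT14, a basal keratin of squamous epithelia, fell from 676, 649 and 667 CPM to 95.5, 92.8 and 79.1 CPM in CAL27 cells (log2 fold change -2.90, SE 0.06, edgeR adjusted p = 2.6e-14). The level of KRT14 in HSC3 cells fell from 1059, 1268 and 1056 CPM to 249.9, 342 and 330.4 CPM (log2 fold change -1.88, SE 0.12, adjusted p = 1.2e-06). KRT5, its partner keratin, fell with a log2 fold change of -1.05 (SE 0.04, edgeR adjusted p = 6.9e-14) in CAL27 and -1.003 (SE 0.08, adjusted p = 6.9e-06) in HSC3 cells. Both keratins are also among the squamous markers summed above. Their log2 fold changes were larger in size than those of ITGA6 and ITGB4, the integrin chains of the same structure.

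Ligands of the integrins other than laminins moved in both directions. At a fold above 2, 3 were called higher and 1 lower in CAL27 cells, where 1.31% and 5.11% of all genes were. In HSC3 cells 4 were called higher and 2 lower, where 1.58% and 4.4% of all genes were. With no fold threshold, of 13 tested in CAL27 cells 4 rose and 5 fell (median log2 fold change 0.02). Of 12 tested in HSC3 cells 4 rose and 5 fell (median -0.13). CCN1, a matricellular ligand of αv integrins, rose with a log2 fold change of 1.89 (SE 0.05, edgeR adjusted p = 1.8e-16) in CAL27 and 2.03 (SE 0.10, adjusted p = 2.0e-07) in HSC3 cells. FN1, the fibronectin bound by α5β1 and αv integrins, rose in HSC3 cells (log2 fold change 2.22, SE 0.06, adjusted p = 1.5e-08) and was 0.02 (SE 0.05, adjusted p = 0.73) in CAL27 cells, a difference of 2.20 (SE 0.07, edgeR adjusted p = 9.7e-11). NPNT, the nephronectin bound by α8β1, fell with a log2 fold change of -1.36 (SE 0.07, edgeR adjusted p = 4.1e-12) in CAL27 and -3.91 (SE 0.27, adjusted p = 2.3e-06) in HSC3 cells, and its receptor chain ITGA8 was at most at 4 counts. Of 22 integrin activators and adaptors, 8 rose and 7 fell in CAL27 cells (median log2 fold change 0.00), and of 21 tested in HSC3 cells 2 rose and 7 fell (median -0.05). Among those, TNS1, a tensin of focal adhesions, fell with log2 fold changes of -2.35 (SE 0.09, edgeR adjusted p = 6.5e-14) and -4.24 (SE 0.16, adjusted p = 6.5e-08).

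Of 14 basement membrane partners, 2 rose and 7 fell in CAL27 cells (median log2 fold change -0.52), and of 13 tested in HSC3 cells 1 rose and 4 fell (median -0.24). FBLN1, a fibulin of the basement membrane, fell in both lines, with log2 fold changes of -0.92 (SE 0.05, edgeR adjusted p = 4.1e-12) in CAL27 and -1.94 (SE 0.17, adjusted p = 1.1e-05) in HSC3 cells. Of 5 laminin receptors other than integrins, 3 fell and 0 rose in each line (median log2 fold change -0.22 in CAL27 and -0.25 in HSC3 cells). BCAM, a receptor of laminin α5, fell with a log2 fold change of -0.61 (SE 0.04, edgeR adjusted p = 1.8e-10) in CAL27 and -2.29 (SE 0.09, adjusted p = 1.0e-07) in HSC3 cells. Of 4 proteases that process laminin-332, 3 fell and 0 rose in each line (21.8% and 15.4% of all genes fell), none of them called at a fold above 2 (median log2 fold change -0.33 in CAL27 and -0.58 in HSC3 cells).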

How the data were processed

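RNA-seq was performed on 12 libraries of CAL27 and HSC3 cells with tet-MUC1shRNA, 3 per line with vehicle and 3 with DOX. RNA was extracted with TRIzol and made into TruSeq stranded mRNA libraries. The submitters' processing notes name FastQC 0.11.9, STAR 2.7.9a, Subread 2.0.1, featureCounts and GRCh38. Use of strand and duplicated reads and the annotation are not given in the sources used here. The authors deposited raw counts per gene symbol, 1 table for each line, without normalization. CAL27 DOX columns carry numbers unlike those of the samples, so they were mapped to the group only (a, b and c). Coordinates, lengths and overlaps are from GENCODE v44 (GRCh38). In the 12 replicate pairs 0.535% to 1.93% of genes had equal counts, so no library was treated as a copy of another.

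Each line was fitted alone in R 4.3.3 with edgeR 4.0.16 (TMM, filterByExpr at 10 counts and a total of 15, robust glmQLFit, glmQLFTest). The differences between lines were from 1 fit of the 12 libraries. P-values were two-sided and adjusted by Benjamini-Hochberg over the whole table, and a call required an adjusted p under 0.05 with a fold above 2. SE is the log2 fold change divided by the square root of F. The number of counts that 1 molecule gave was estimated from the share of zeros among genes expected at 8 to 16 counts. Groups in which every library had 3 counts or fewer are described by counts only. In simulated tables, of 200 genes moved by 1.5 on the log2 scale, 100%, 99%, 92% and 98% were recovered in CAL27, HSC3, the difference and the baseline comparison.

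Named in full were ITGA6, ITGB4, LAMA3 and LAMB3, chains called with DOX or in the difference, the 5 largest baseline calls in each direction, the 3 highest levels per line and, from other lists, up to 3 called genes whose mean log2 CPM reached 3. Other chains are given as counts or as examples of a result beside them, chosen after their values were seen. One chain that the symbols matched (1 of 38) and 1 gene of the marker lists are not reported here. The chains and lists were chosen with earlier results of these data known. Alternatives covered scaling, filter, DESeq2 1.42.0, thresholds, 1 fit over 12 libraries, counts per molecule, the replicate block and each library left out.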

Additional observations from a re-analysis of the deposited data

Results flagged for a closer look

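For 12 chains the effect of DOX differed between the lines by the test of the difference itself (HSC3 effect minus CAL27 effect, edgeR adjusted p under 0.05), and they are listed here for a closer look. The log2 differences were -0.83 for ITGA3, -0.80 for ITGB8, -0.78 for LAMA3, -0.57 for ITGAV, -0.57 for LAMC1, -0.52 for ITGB5, -0.45 for ITGB1, -0.28 for ITGA6 and -0.27 for LAMB1. ITGA2 and LAMA1 differed in the other direction, by 0.66 and 0.87. ITGA4 differed by -4.42, with 4, 0 and 0 counts in the HSC3 DOX libraries. LAMA3 and ITGA3 moved in opposite directions in the lines, and so did ITGA2. Groups of 3 libraries were too small for a formal screen for a library far from the others, and HSC3 DOX replicate 1 was named above from its values. Over all genes this library also stood apart. The mean squared deviation between replicates, relative to random sampling of counts, was 132 and 85.4 for its pairs with DOX replicates 2 and 3. The same ratio was 22.0 between DOX replicates 2 and 3 and at most 28.8 in the other groups.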

How the results depend on the processing

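Of 144 recomputed counts of called chains, 129 were within 1.5 times the value reported. Many of the 129 are equal counts of 0, because no alternative at a fold above 2 called a chain higher with DOX or in the difference. A move between 2 and 3 chains is also within 1.5 times, so the tally says little about such small counts. At a fold above 1.5, CAL27 cells had 1 chain higher and 5 lower, HSC3 cells 5 lower, and the difference 2 higher and 4 lower. With no fold threshold they had 9 and 14, 4 and 9, and 2 and 10. The fit over 12 libraries called 0 chains lower in CAL27 cells. A stricter filter on low counts called 1 in HSC3 cells, where it left ITGA4 and ITGAM untested. With 1 library left out, chains called lower were 2 to 3 in CAL27 cells, 1 to 4 in HSC3 cells, 1 in the difference and 6 to 8 at baseline (11 to 12 higher). The count in HSC3 cells was 1 without vehicle replicate 2 or 3. The cause was not tested. With the replicate block in HSC3 cells, 2 chains were called lower and 0 higher, and over all genes 753 and 252 in place of 793 and 284. Deviations of same-numbered libraries from their group means correlated at r of -0.20, 0.35 and -0.35 over 9133 genes. With 3 libraries in a group these values cannot settle whether libraries of the same number were cultured together. No paired analysis was possible in CAL27 cells or between the lines because the numbers of the CAL27 DOX columns match none of the vehicle columns. Of 888 values of named chains, 830 kept their direction and their side of the adjusted p threshold, with no fold threshold applied. Of the rest, 28 no longer passed that threshold, 16 newly passed it and 14 changed sign. None of those that changed sign had passed the threshold. They were ITGAL in CAL27 cells (-0.40 to 0.27 with 1 library left out), ITGB1 in HSC3 cells (-0.023 by library totals, -0.010 to 0.026 with 1 left out), LAMB3 in HSC3 cells (-0.18 to 0.022 with 1 left out, the latter without DOX replicate 1) and, in the difference with 1 left out, ITGA2B (-2.57 to 1.24), ITGB2 (-0.21 to 0.012) and LAMA4 (-4.55 to 1.71, and 0.43 by counts per molecule). Genes with few counts are limited by molecules, most in HSC3 DOX libraries.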

Other observations

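The collagen IV chains of the basement membrane were divided between the lines. COL4A1 and COL4A2, the chains of the common network, were lower in HSC3 than in CAL27 vehicle cells. COL4A1 had 10388, 8398 and 9098 counts in CAL27 vehicle and 42, 38 and 28 in HSC3 vehicle libraries (log2 difference -7.79, SE 0.30, edgeR adjusted p = 3.8e-12), and COL4A2 had 18116, 14205 and 15686 against 0, 2 and 6. COL4A5 and COL4A6, which form a network of their own in some epithelia, were higher in HSC3 cells (log2 difference 2.15, SE 0.06, and 3.32, SE 0.08). With DOX, COL4A5 and COL4A6 fell in CAL27 cells (log2 fold change -0.76, SE 0.06, and -0.98, SE 0.10). In HSC3 cells COL4A6 also fell (-0.38, SE 0.07, edgeR adjusted p = 0.0016) and COL4A5 was at -0.01 (SE 0.06, adjusted p = 0.93). The difference between the lines was 0.76 (SE 0.08, edgeR adjusted p = 1.2e-05) for COL4A5 and 0.60 (SE 0.10, adjusted p = 6.3e-04) for COL4A6. These genes were named after their values were seen.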
